A study of Mus musculus with 12 samples.

Results

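The genes described here are 42 genes of the cell cycle and of DNA replication, chosen by symbol for their known roles. All 42 were found by symbol among the 21573 genes of the deposited table, and 41 of them passed the minimum for testing. They divide into 11 genes that control G1 and the entry into S phase, 15 genes of DNA replication in S phase and 16 genes of mitosis. RNA-seq was done on plasmacytoid dendritic cells (pDCs) from the bone marrow of BALB/c mice aged 56 to 63 days. The cells spent 24 h in culture with a CpG oligodeoxynucleotide of class A (CpG-A), class B (CpG-B) or class C (CpG-C), each at 0.5 µM, or for the same time with none (control), and each of these 4 groups has 3 libraries. The labels state that cells were sorted, but neither the gate nor its order relative to the culture is described. Nothing in the labels ties a replicate to its own animal, so p-values measure only the spread between these samples.

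Cells enter the cycle when D-type cyclins, bound to Cdk4 or Cdk6, phosphorylate the retinoblastoma protein and release E2F transcription factors, a step that the Cip/Kip inhibitors oppose. Cdc6 and Cdt1 then load the MCM helicase on replication origins, and Cdc45 and the GINS complex convert it to an active helicase, while ribonucleotide reductase, thymidylate synthase and thymidine kinase supply nucleotides. Cdk1 with cyclin B drives mitosis, and the anaphase-promoting complex with Cdc20 and Ube2c ends it. Mature pDCs are regarded as largely non-dividing cells that derive from cycling bone marrow progenitors. The 3 oligodeoxynucleotides all signal through TLR9 and differ in backbone and secondary structure. CpG-A joins a phosphodiester palindrome to phosphorothioate poly-G tails, CpG-B is linear with phosphorothioate links throughout, and CpG-C is a phosphorothioate strand that carries a palindrome.

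Expression was given as FPKM (fragments counted per gene, divided by transcript length and by library size), so that levels can be set side by side between genes. Differences were tested with limma on log2(FPKM + 1), across the 11641 genes that reached 1 FPKM in 3 or more libraries, and a gene was called at a Benjamini-Hochberg adjusted p below 0.05. The depth, estimated roughly from the spacing of low values, was 22400000 to 27000000 fragments per library. Libraries of 1 group correlated on average at Pearson r of 0.763 to 0.864 across tested genes, and between 60.8% and 86.7% of the tested genes reached 1 FPKM in a library. Cell cycle genes varied more between replicates than most genes. The median SD within groups was 1.66 log2 units for mitotic genes, 1.17 for S phase genes and 1.04 for G1 genes, against 1.01 for all genes tested.

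In CpG-B cells most cell cycle genes stood above control. The median log2 difference was 1.98 for S phase, 0.80 for mitotic and 0.89 for G1 genes. The lead of the S phase genes over the mitotic genes rested on control replicate 1. Without that library their medians were 1.80 and 1.74, and without all libraries numbered 1 they were 1.44 and 1.28. Counts of genes with a higher or lower mean, here and below, are of the mean log2(FPKM + 1). It was higher with CpG-B in 34 of 42 genes, with a median log2 difference of 1.18. The median of all tested genes was -0.25 and 41% of them were higher. Of the 34 genes, Rrm2, Cenpa and Cdkn1a had a lower mean FPKM with CpG-B than in control. The count and median of the members moved to 26 of 42 and 0.61 without control replicate 2. Without CpG-B replicate 1 they were 29 of 42 and 0.76. Of the 41 genes tested, 2 rose, cyclin D2 (Ccnd2) and the origin licensing factor Cdc6, and no member fell. Cdc6 reached the minimum for testing through the 3 CpG-B libraries alone, so its test had to set CpG-B apart, and it is no evidence beyond its values. Of all tested genes 5.75% were called in this comparison, 3.26% higher and 2.48% lower. In 11 of the 42 genes every CpG-B library exceeded every control library, a share to be read against 10.1% of tested genes. The 11 include Cdc6 and Ccne1, which was not tested, and both reached 1 FPKM only in CpG-B libraries. In 1 gene, the mitotic motor Kif11, every CpG-B library lay below control, against 15.6%. No member was called with CpG-A or CpG-C against control, where 1.47% and 1.86% of all tested genes were called. Without adjustment, 6 members had p below 0.05 with CpG-A and 4 with CpG-C, against 12.8% and 12.7% of all tested genes. The mean was higher than control in 13 of the 42 genes and lower in 28 with CpG-A, and higher in 12 and lower in 30 with CpG-C, while 38.9% and 40.2% of all tested genes were higher. The median log2 difference of the 42 genes was -0.73 with CpG-A and -0.48 with CpG-C, beside -0.27 and -0.22 for all tested genes. Both moved with single libraries. Without 1 library at a time the CpG-A median ran from -1.25 (without CpG-A replicate 3) to -0.27 (without control replicate 1), and the CpG-C median from -0.96 (without control replicate 2) to -0.08 (without CpG-C replicate 2). Without all libraries numbered 1 they were -0.14 and -0.21. With CpG-A 1 gene (Ccnd2) lay above control in every library and 4 (Cdt1, Mcm5, Bub1 and Kif11) lay below it, beside 5.78% and 11% of tested genes. With CpG-C 1 gene (Ccnd2 again) lay above and 5 (Cdt1, Mcm7, Bub1, Kif11 and Cdkn1b) below, beside 6.64% and 11.2%. The 3 comparisons share the control libraries.

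**Figure D1:**
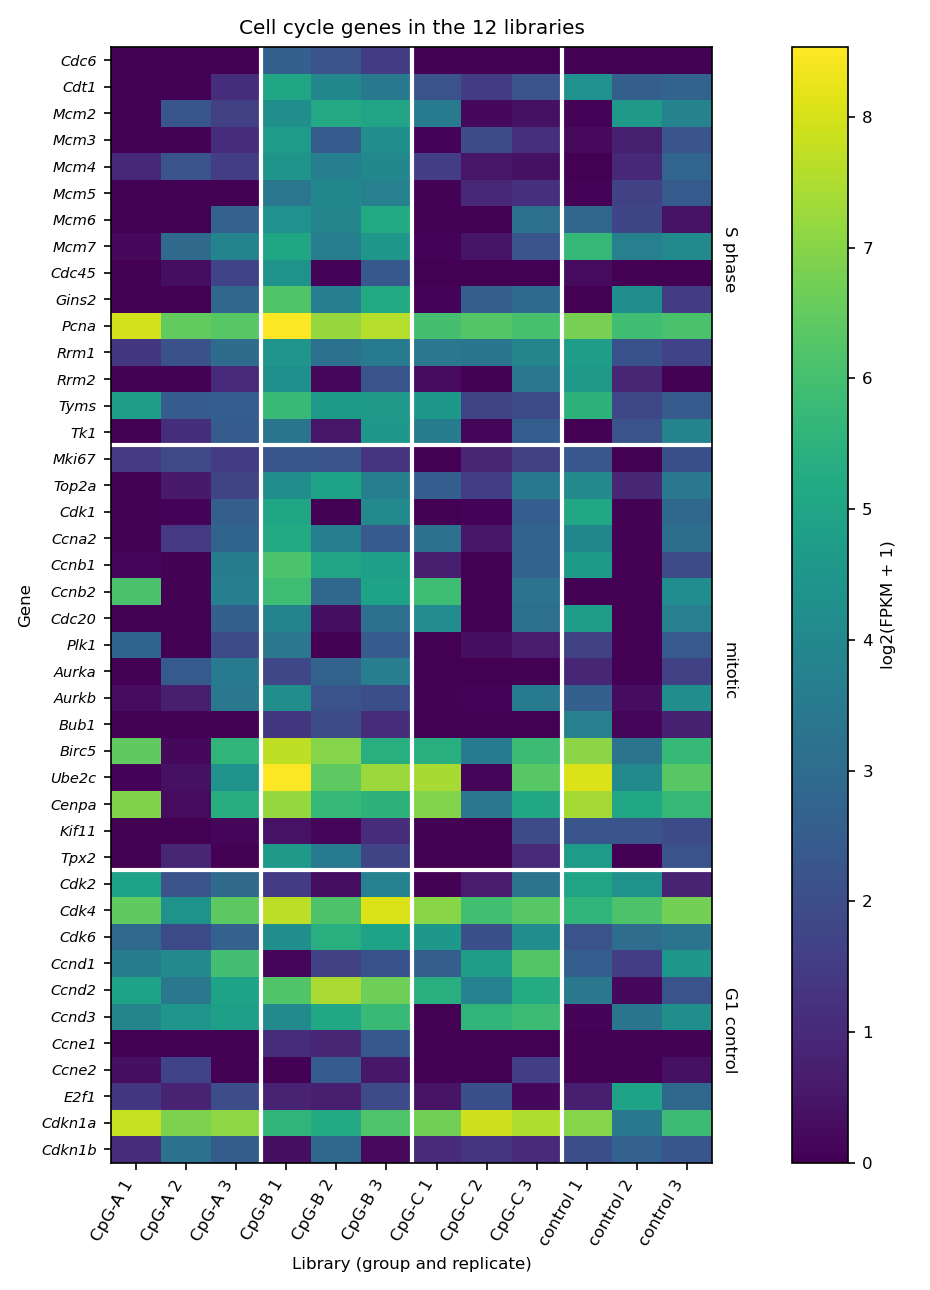
Heat map of log2(FPKM + 1) for the 42 cell cycle genes (rows, in the S phase, mitotic and G1 classes) in the 12 libraries (columns, by group and replicate), with dark blue at 0 and yellow at the highest level. The S phase rows are brighter in the 3 CpG-B libraries than in most others, with a class median of 4.10 ± 0.40 (SD, n = 3) against 1.51 ± 1.13 in control.

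Libraries differed widely in how many of these genes they contained. At least 1 FPKM was reached by 17, 19 and 35 of the 42 genes in the CpG-A libraries 1, 2 and 3, by 37, 32 and 40 in the CpG-B libraries, by 20, 17 and 33 in the CpG-C libraries and by 28, 22 and 34 in the control libraries. The CpG-B libraries held many of them each time, while the other groups each had a library 3 with 33 or more and a library 2 with 22 or fewer. In bulk RNA, a smaller number of cycling cells and less RNA per cycling cell cannot be told apart.

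Ccnd2, which encodes cyclin D2 (gene 12444, chr6:127125708-127151048, minus strand, mm10), was the member with the clearest response. It had 29.69, 9.71 and 30 FPKM with CpG-A, 73.23, 173.22 and 100.35 FPKM with CpG-B, 39.85, 12.63 and 37.46 FPKM with CpG-C, and 9.59, 0.14 and 3.56 FPKM in control. Every library of each CpG class lay above every control library, and the CpG-B libraries lay above all others. Ccnd2 rose with CpG-B, averaging 115.6 ± 51.7 FPKM against 4.43 ± 4.79 in control (SD, n = 3 each), a log2 difference of 4.85 (SE 0.803, 95% interval 3.13 to 6.56, limma adjusted p = 0.0021). It was called in this comparison under every alternative run, with log2 differences of 3.98 to 5.97. The differences with CpG-A (2.51, 95% interval 0.80 to 4.22, limma adjusted p = 0.163) and CpG-C (2.87, 95% interval 1.15 to 4.58, limma adjusted p = 0.0926) did not pass. Between classes, CpG-A minus CpG-B was -2.34 (95% interval -4.05 to -0.62, limma adjusted p = 0.169) and CpG-B minus CpG-C was 1.98 (0.26 to 3.69, limma adjusted p = 0.32). CpG-A minus CpG-C was -0.36, with an interval of -2.07 to 1.36 that includes differences of either sign.

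Cyclin D1 (Ccnd1) ran the other way between the classes. It had 11.09, 15.17 and 62.41 FPKM with CpG-A, 0.08, 2.16 and 3.42 FPKM with CpG-B, 5.01, 26.47 and 75.03 FPKM with CpG-C, and 4.81, 1.94 and 22.01 FPKM in control. All CpG-B libraries lay below all CpG-A and all CpG-C libraries, but overlapped control. The log2 difference was 3.23 for CpG-A minus CpG-B (SE 1.06, limma adjusted p = 0.147) and -3.23 for CpG-B minus CpG-C (SE 1.06, limma adjusted p = 0.194), neither of which passed. With library weights CpG-B minus CpG-C was -3.81 and passed (limma adjusted p = 0.0275). Cyclin D3 (Ccnd3) had 13.94, 20.86 and 27.36 FPKM with CpG-A, 15.41, 33.63 and 54.13 FPKM with CpG-B, 0.04, 46.68 and 56.71 FPKM with CpG-C, and 0.06, 9.06 and 18.13 FPKM in control, with overlap in all 6 comparisons.

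The makeup of the D-type cyclins in the CpG-B libraries differed from that of the other groups. Ccnd1 made up 20.3%, 33.2% and 52.1% of the summed D cyclin FPKM with CpG-A, 0.0902%, 1.03% and 2.17% with CpG-B, 11.2%, 30.9% and 44.3% with CpG-C, and 33.3%, 17.4% and 50.4% in control. Ccnd2 was the most abundant D cyclin in all 3 CpG-B libraries, at 82.5%, 82.9% and 63.6% of the sum. In the other 3 groups the most abundant D cyclin was Ccnd2 in library 1, Ccnd3 in library 2 and Ccnd1 in library 3. The sum itself was 54.72, 45.74 and 119.8 FPKM with CpG-A, 88.72, 209 and 157.9 FPKM with CpG-B, 44.9, 85.78 and 169.2 FPKM with CpG-C, and 14.46, 11.14 and 43.7 FPKM in control, so each CpG library exceeded all control libraries.

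**Figure D2:**
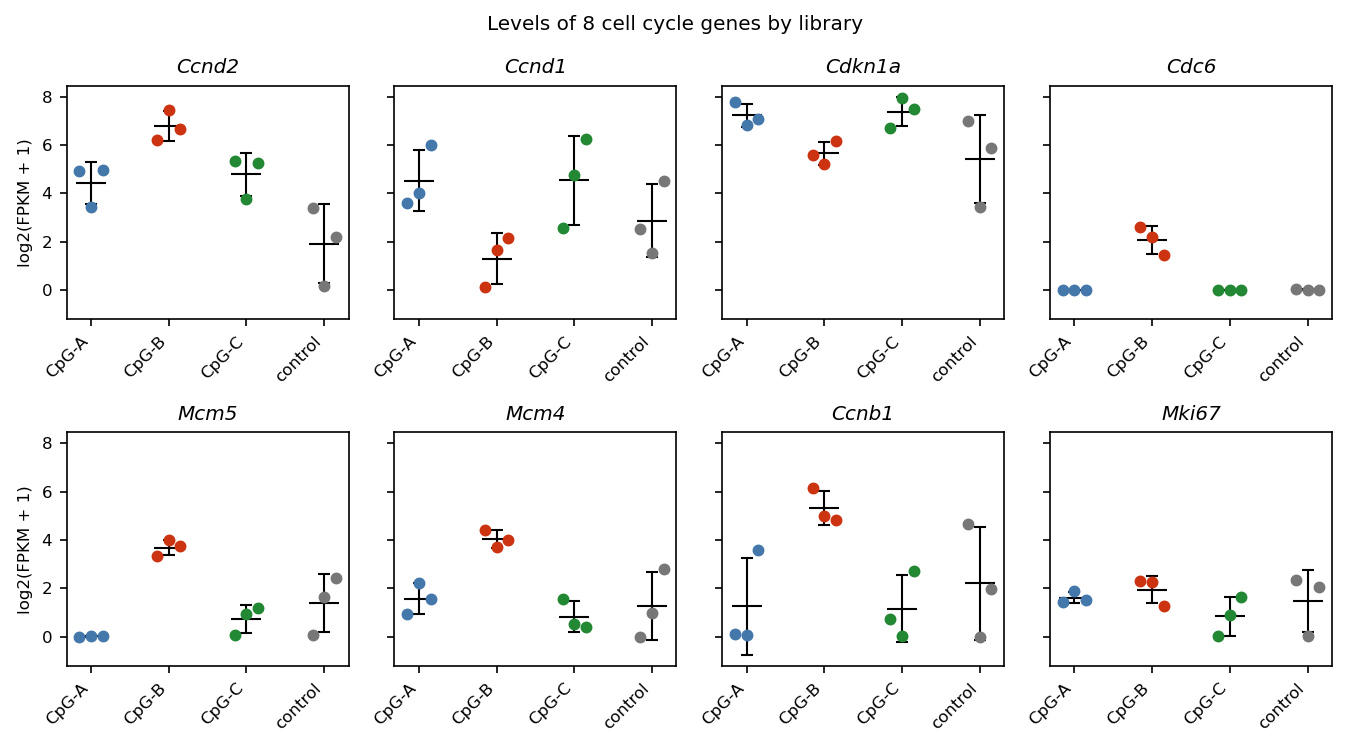
Levels of 8 cell cycle genes, log2(FPKM + 1), in each library (points), with the group mean (long bar) and SD (whiskers, n = 3) for CpG-A, CpG-B, CpG-C and control. The CpG-B points of Ccnd2, Cdc6, Mcm5 and Mcm4 lie above all others, those of Ccnd1 lie below those of CpG-A and CpG-C, and those of Mki67 overlap the other groups.

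The kinases that bind D cyclins did not pass the test in any comparison. Cdk6 had 6.47, 2.74 and 5.39 FPKM with CpG-A, 18.04, 41.01 and 29.77 FPKM with CpG-B, 22.7, 3.27 and 17 FPKM with CpG-C, and 3.56, 7.37 and 8.66 FPKM in control. The CpG-B libraries lay above all control and all CpG-A libraries, and CpG-B minus control was 2.02 log2 units (SE 0.771, limma adjusted p = 0.161). Cdk4 was the most highly expressed kinase of the set, with 85.79, 20.03 and 82.55 FPKM with CpG-A, 206.47, 70.54 and 273.5 FPKM with CpG-B, 128.23, 60.32 and 78.79 FPKM with CpG-C, and 47.26, 70.22 and 108.06 FPKM in control. Its groups overlapped in all 6 comparisons. Cdk2, the partner of E and A cyclins, had 30.19, 3.53 and 6.67 FPKM with CpG-A, 1.89, 0.25 and 12.87 FPKM with CpG-B, 0.04, 0.58 and 8.75 FPKM with CpG-C, and 30.99, 19.8 and 0.8 FPKM in control. Its CpG-C minus control difference of -2.07 (SE 1.29, limma adjusted p = 0.537) lay within the spread of the replicates.

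Cdkn1a, the Cip/Kip inhibitor induced by p53 among others, was higher in the CpG-A and CpG-C libraries than in the CpG-B libraries. It had 217.56, 114.02 and 134.19 FPKM with CpG-A, 46.64, 36.58 and 71.32 FPKM with CpG-B, 104.21, 243.92 and 180.39 FPKM with CpG-C, and 124.85, 9.89 and 57.31 FPKM in control. The CpG-A and CpG-C libraries lay above all CpG-B libraries, and all 3 classes overlapped control, where replicate 2 was the lowest library. CpG-A minus CpG-B was 1.57 (95% interval 0.08 to 3.07, limma adjusted p = 0.328) and CpG-B minus CpG-C was -1.72 (-3.22 to -0.23, limma adjusted p = 0.32). Against control the differences were 1.80 with CpG-A (SE 0.7, limma adjusted p = 0.285), 0.23 with CpG-B (0.902) and 1.96 with CpG-C (0.225). Cdkn1b, a second inhibitor of the family that marks quiescent cells, had 1.13, 8.2 and 4.68 FPKM with CpG-A, 0.28, 6.39 and 0.15 FPKM with CpG-B, 1.04, 1.5 and 1.08 FPKM with CpG-C, and 3.12, 5.38 and 3.88 FPKM in control. The CpG-C libraries lay below control in each case (-1.20, SE 0.87, limma adjusted p = 0.61).

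The E cyclins and E2f1 were low. Cyclin E1 (Ccne1) was listed at 0 in all CpG-A and all control libraries, had 1.13, 0.91 and 4.09 FPKM with CpG-B and 0, 0 and 0.02 FPKM with CpG-C, and did not reach the minimum for testing. Cyclin E2 (Ccne2) lay between 0 and 4.55 FPKM and overlapped between all groups. E2f1, an activating E2F and itself an E2F target, had 1.62, 0.77 and 3.01 FPKM with CpG-A, 0.79, 0.66 and 2.83 FPKM with CpG-B, 0.38, 3.27 and 0.14 FPKM with CpG-C, and 0.64, 29.71 and 6.45 FPKM in control. Its highest level was thus in a control library, and all groups overlapped.

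The replication genes of S phase stood higher with CpG-B as a class. The class median was 0, 0.26 and 2.32 FPKM in the CpG-A libraries, 20.39, 11.6 and 17.86 FPKM in the CpG-B libraries, 0.18, 0.43 and 3.57 FPKM in the CpG-C libraries, and 0.18, 2.64 and 4.35 FPKM in the control libraries. Against control 14 of the 15 genes had a higher mean log2(FPKM + 1) with CpG-B, beside 41% of all tested genes. The median log2 difference of the 15 genes was 1.98. In 6 of the 15 every CpG-B library lay above control (Cdc6, Mcm3, Mcm4, Mcm5, Mcm6 and Pcna), beside 10.1% of tested genes. Of these, Cdc6 reached the minimum for testing through the CpG-B libraries alone. The count of 14 was also found without the libraries numbered 1, with a median of 1.44, and lay between 13 and 15 when any single library was left out. With CpG-A and with CpG-C none of the 15 lay above all control libraries, beside 5.78% and 6.64% of tested genes. In each class 2 lay below them, beside 11% and 11.2%. With CpG-A 11 of 15 and with CpG-C 12 of 15 had a lower mean than control, with medians of -0.76 and -0.44. Without the libraries numbered 1 these counts were 8 of 15 for both classes and the medians -0.01 and -0.08. Without single libraries the CpG-A median ran from -1.37 (without CpG-A replicate 3) to -0.32 (without control replicate 1) and the CpG-C median from -0.52 (without control replicate 2) to -0.14 (without CpG-C replicate 1).

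Cdc6, an ATPase that loads the MCM helicase (gene 23834, chr11:98907889-98923942, plus strand, mm10), reached 1 FPKM only in CpG-B cells. It had 0, 0.01 and 0.01 FPKM with CpG-A, 5.07, 3.54 and 1.77 FPKM with CpG-B, 0 FPKM in all 3 CpG-C libraries, and 0.04, 0 and 0 FPKM in control. It rose with CpG-B against control (log2 difference 2.07, SE 0.476, limma adjusted p = 0.0175) and was lower with CpG-A than with CpG-B (-2.08, SE 0.476, limma adjusted p = 0.0332). It was also called higher with CpG-B than with CpG-C (limma adjusted p = 0.0457), where no log2 difference is given because CpG-C is listed at 0. These log2 differences depend on the 1 added to FPKM, since the other groups are near 0. As it passed the minimum through the CpG-B libraries, it was not tested without any 1 of them. The call against control was lost without control replicate 2 (adjusted p = 0.0674) or control replicate 3 (0.0601). The call against CpG-A was lost without any CpG-A library (0.0886 to 0.108), without CpG-C replicate 3 (0.0552) and without control replicate 2 (0.0534) or 3 (0.0536), and that against CpG-C without any single library (0.0505 to 0.171).

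Cdt1, the partner of Cdc6 in licensing (gene 67177, chr8:122568015-122573136, plus strand, mm10), was nearly absent with CpG-A. It had 0, 0.02 and 1.19 FPKM with CpG-A, 31.85, 14.76 and 9.91 FPKM with CpG-B, 3.57, 1.82 and 3.57 FPKM with CpG-C, and 18.84, 4.96 and 5.6 FPKM in control. All CpG-A libraries lay below those of the other 3 groups, and all CpG-C libraries lay below those of control and CpG-B. It was lower with CpG-A than with CpG-B by the test (0.403 ± 0.681 against 18.8 ± 11.5 FPKM, SD, n = 3 each, log2 difference -3.77, SE 0.818, 95% interval -5.51 to -2.02, limma adjusted p = 0.0242). Leaving out CpG-A replicate 1 (limma adjusted p = 0.0661) or 2 (0.0916) ended this call, as did leaving out CpG-B replicate 1 (0.151) or 2 (0.0711) or all 4 libraries numbered 1 (0.0979). The difference from control was -2.82 with CpG-A (SE 0.818, limma adjusted p = 0.118), 0.95 with CpG-B (0.59) and -1.24 with CpG-C (0.565), none of which passed.

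The 6 subunits of the MCM helicase, Mcm2 to Mcm7, were all at 4.64 FPKM or more in the CpG-B libraries. The number that reached 1 FPKM was 0, 3 and 5 in the CpG-A libraries, 6 in each CpG-B library, 2, 1 and 4 in the CpG-C libraries and 2, 4 and 5 in the control libraries. Their median was 0, 1.845 and 2.01 FPKM with CpG-A, 19.72, 12.91 and 19.79 FPKM with CpG-B, 0.06, 0.42 and 1.265 FPKM with CpG-C, and 0.11, 2.28 and 5.135 FPKM in control. The CpG-B medians thus lay above those of all other libraries.

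Mcm5 (gene 17218) had 0, 0.02 and 0.01 FPKM with CpG-A, 9.17, 14.78 and 12.28 FPKM with CpG-B, 0.04, 0.94 and 1.27 FPKM with CpG-C, and 0.05, 2.15 and 4.37 FPKM in control. The CpG-A libraries lay below all others and the CpG-B libraries above all others. CpG-A was lower than CpG-B by the test (0.01 ± 0.01 against 12.1 ± 2.81 FPKM, SD, n = 3 each, log2 difference -3.67, SE 0.748, 95% interval -5.27 to -2.08, limma adjusted p = 0.0176). The call was lost without any single library of either class (adjusted p 0.0505 to 0.065), without a minimum level (0.0664) and with 0.01 added to FPKM in place of 1 (0.0537). Against control Mcm5 differed by 2.30 log2 units with CpG-B (SE 0.748, limma adjusted p = 0.0931), and against CpG-C by 2.95 (SE 0.748, limma adjusted p = 0.0725).

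Mcm3, Mcm4 and Mcm6 did not pass the test, though their CpG-B libraries also lay above all libraries of the other 3 groups. Mcm3 had 0, 0.03 and 1.12 FPKM with CpG-A, 25.46, 4.64 and 17.86 FPKM with CpG-B, 0.07, 2.96 and 1.26 FPKM with CpG-C, and 0.16, 0.68 and 3.8 FPKM in control (CpG-B minus control 2.74, SE 0.869, limma adjusted p = 0.0842). Mcm4 had 0.93, 3.66 and 1.92 FPKM with CpG-A, 20.39, 11.89 and 14.79 FPKM with CpG-B, 1.93, 0.43 and 0.31 FPKM with CpG-C, and 0, 0.99 and 5.9 FPKM in control (CpG-B minus control 2.77, SE 0.853, limma adjusted p = 0.0765). Under the median-of-ratios scaling Mcm3, Mcm4 and Mcm5 were called against control, and under the upper quartile scaling Mcm4 and Mcm5 were. Mcm6 had 0, 0 and 5.46 FPKM with CpG-A, 19.05, 13.93 and 35.05 FPKM with CpG-B, 0, 0 and 7.85 FPKM with CpG-C, and 6.02, 2.41 and 0.32 FPKM in control (CpG-B minus control 2.81, SE 1.07, limma adjusted p = 0.164).

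Mcm2 and Mcm7 overlapped between CpG-B and control, and single control libraries were high. Mcm2 had 0, 3.89 and 2.1 FPKM with CpG-A, 18.21, 34.79 and 30.98 FPKM with CpG-B, 10.14, 0.13 and 0.3 FPKM with CpG-C, and 0.06, 23.04 and 13.04 FPKM in control. Its CpG-B libraries lay above all CpG-A and all CpG-C libraries. Mcm7 had 0.14, 6.79 and 13.6 FPKM with CpG-A, 31.52, 11.51 and 21.72 FPKM with CpG-B, 0.05, 0.41 and 3.7 FPKM with CpG-C, and 50.39, 12.04 and 16.11 FPKM in control. Its CpG-C libraries lay below those of both control (-3.56, SE 1, limma adjusted p = 0.0942) and CpG-B, and CpG-A minus control was -2.16 (SE 1, limma adjusted p = 0.383).

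The start regions of Cdc6 and Mcm5 are shown because the CpG-B libraries of both lay above all others and because promoters of replication genes often hold E2F sites. RefSeq promoters (GRCm38.p6, the build called mm10) were at hand for 34 of the 42 genes, and the 250 bases before the start site were searched on both strands for 4 E2F spellings (TTTCGCGC, TTTGGCGC, TTTCCCGC and TTTGCCGC). At least 1 of them occurred in 4 of 13 S phase promoters (Cdc6, Mcm5, Mcm6 and Mcm7), in 1 of 13 mitotic promoters (Cdk1) and in 1 of 8 G1 promoters (Cdk2), against 2.84% of the 14010 promoters of genes in the table. Capitals mark these letters in the 250 bases before the RefSeq starts of Cdc6 (chr11:98907901-98908150, plus strand) and Mcm5 (chr8:75109259-75109508, plus strand), written 5′ to 3′ along the gene. The Cdc6 window lies inside the deposited gene, which starts at 98907889, so its E2F spelling is not upstream of that start. In Mcm5 the TTTCGCGC of the gene's strand and the TTTGGCGC of the other strand overlap in 1 run. None of the 4 spellings occurred in this window of Cdt1.
Cdc6: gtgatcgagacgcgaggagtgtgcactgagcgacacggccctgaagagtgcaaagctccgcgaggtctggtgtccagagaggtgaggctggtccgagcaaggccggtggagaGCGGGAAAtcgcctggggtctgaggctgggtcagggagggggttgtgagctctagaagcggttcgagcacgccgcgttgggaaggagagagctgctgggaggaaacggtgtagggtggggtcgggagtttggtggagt
Mcm5: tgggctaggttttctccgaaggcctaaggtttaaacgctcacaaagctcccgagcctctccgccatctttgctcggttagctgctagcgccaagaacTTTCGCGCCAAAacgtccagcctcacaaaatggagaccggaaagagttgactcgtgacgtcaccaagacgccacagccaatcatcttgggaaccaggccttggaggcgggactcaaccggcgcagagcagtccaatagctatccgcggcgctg

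The genes that activate the helicase and the sliding clamp also stood high with CpG-B without passing the test. Gins2, a GINS subunit, had 0, 0 and 5.97 FPKM with CpG-A, 73.49, 11.6 and 35.67 FPKM with CpG-B, 0.05, 5.05 and 6.87 FPKM with CpG-C, and 0, 18.06 and 1.8 FPKM in control. The CpG-B libraries lay above all CpG-A and CpG-C libraries but overlapped control (CpG-B minus control 3.11, SE 1.23, limma adjusted p = 0.178). Cdc45 had 0, 0.26 and 2.32 FPKM with CpG-A, 19.72, 0.06 and 4.06 FPKM with CpG-B, 0 FPKM in all CpG-C libraries, and 0.18, 0 and 0 FPKM in control, so 1 CpG-B library lacked it. Pcna, the clamp that holds DNA polymerases and also serves repair, was abundant throughout, with 249.15, 89.55 and 79.76 FPKM with CpG-A, 370.3, 146.65 and 192.21 FPKM with CpG-B, 63.24, 74.37 and 66 FPKM with CpG-C, and 109.43, 59.67 and 67.21 FPKM in control. All CpG-B libraries lay above all control and all CpG-C libraries (CpG-B minus control 1.51, SE 0.494, limma adjusted p = 0.0958). RefSeq lists pseudogene copies of Pcna, Ccnb1 and Tyms, and how the authors' counting divided reads between copies is not given in the sources used here.

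Among the genes of nucleotide supply no group stood apart from control. Rrm2, the ribonucleotide reductase subunit made in S phase, had 0, 0 and 1.05 FPKM with CpG-A, 18.3, 0.13 and 3.55 FPKM with CpG-B, 0.18, 0 and 9.61 FPKM with CpG-C, and 22.93, 0.89 and 0.02 FPKM in control. It lay below 1 FPKM in at least 1 library of every group (CpG-B minus control 0.37, SE 1.28, 95% interval -2.36 to 3.10). Rrm1, its large subunit, lay between 1.61 and 25.83 FPKM and thymidine kinase Tk1 between 0 and 22.31 FPKM, and only Rrm1 separated groups, with CpG-A below CpG-B and CpG-C. Thymidylate synthase (Tyms) had 26.79, 4.55 and 4.87 FPKM with CpG-A, 53.07, 24.09 and 22.74 FPKM with CpG-B, 22.21, 2.38 and 2.78 FPKM with CpG-C, and 44.33, 2.64 and 4.35 FPKM in control. In all 4 groups library 1 had the most Tyms, and within each replicate number the CpG-B library had the most. All its CpG-B libraries lay above all CpG-C libraries (2.25, SE 1.05, limma adjusted p = 0.417).

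The mitotic genes were the most variable class. Their class median was 0.04, 0.165 and 5.45 FPKM in the CpG-A libraries, 20.48, 5.93 and 9.65 FPKM in the CpG-B libraries, 0.34, 0.055 and 5.57 FPKM in the CpG-C libraries, and 15.04, 0.03 and 6.875 FPKM in the control libraries. At least 1 FPKM was reached by 5, 3 and 13 of the 16 genes with CpG-A, 15, 12 and 16 with CpG-B, 7, 3 and 13 with CpG-C and 14, 4 and 15 in control. In the libraries numbered 2 the mitotic transcripts were thus mostly missing from CpG-A, CpG-C and control cells and mostly present in CpG-B cells, while library 3 held them in every group. Against control, 13 of 16 had a higher mean log2(FPKM + 1) with CpG-B (median difference 0.80). A lower one was found in 12 of 16 with CpG-A and 15 of 16 with CpG-C (medians -1.41 and -0.97). Of all tested genes 41% were higher with CpG-B, 38.9% with CpG-A and 40.2% with CpG-C. No mitotic member passed the test in any of the 6 comparisons. Without control replicate 2, however, 7 of 16 were higher with CpG-B and the median was -0.11, and without CpG-B replicate 1 the figures were 9 of 16 and 0.32. The CpG-A and CpG-C medians were -0.51 and -0.36 without control replicate 1, where 11 and 10 of 16 were lower, and -0.33 and -0.44 without all libraries numbered 1. Without control replicate 2 they were -2.19 and -1.58. Leaving out CpG-A replicate 2 gave -0.74 for CpG-A, and for CpG-C leaving out CpG-C replicate 2 gave -0.54 and control replicate 3 -0.48.

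Of the proliferation markers, Mki67, whose protein Ki-67 is the standard label of cycling cells, had 1.69, 2.68 and 1.89 FPKM with CpG-A, 3.9, 3.79 and 1.44 FPKM with CpG-B, 0.02, 0.84 and 2.12 FPKM with CpG-C, and 4.03, 0.01 and 3.2 FPKM in control. All 4 groups overlapped, and CpG-B minus control was 0.47 with a 95% interval of -1.22 to 2.17. Top2a, the topoisomerase of mitotic chromosomes, had 0.02, 0.52 and 2.39 FPKM with CpG-A, 17.99, 29.77 and 11.96 FPKM with CpG-B, 4.92, 2 and 10.02 FPKM with CpG-C, and 15.31, 0.91 and 9.64 FPKM in control. Its CpG-B libraries lay above all CpG-A and all CpG-C libraries (CpG-A minus CpG-B -3.50, SE 0.943, limma adjusted p = 0.0693).

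The engine of mitosis varied by library. Cdk1 had 0, 0.05 and 4.94 FPKM with CpG-A, 31.16, 0 and 15.89 FPKM with CpG-B, 0, 0.06 and 4.87 FPKM with CpG-C, and 33.16, 0.03 and 6.25 FPKM in control, so every library numbered 2 had at most 0.06 FPKM. Its partner cyclin B1 (Ccnb1) had 0.08, 0.04 and 10.93 FPKM with CpG-A, 69.25, 30.9 and 27.3 FPKM with CpG-B, 0.64, 0.02 and 5.52 FPKM with CpG-C, and 24.13, 0 and 2.91 FPKM in control. The CpG-B libraries lay above all others (CpG-B minus control 3.11, SE 1.24, limma adjusted p = 0.185). Cyclin B2 (Ccnb2) had 67.22, 0.03 and 11.97 FPKM with CpG-A, 58.01, 6.31 and 30 FPKM with CpG-B, 57.72, 0 and 8.49 FPKM with CpG-C, and 0.03, 0 and 16.63 FPKM in control (CpG-B minus control 3.17, SE 1.66, limma adjusted p = 0.329). Cyclin A2 (Ccna2) lay between 0.03 and 36.04 FPKM and overlapped between CpG-B and control.

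Ube2c, the ubiquitin-conjugating enzyme of the anaphase-promoting complex, had 0.05, 0.3 and 19.94 FPKM with CpG-A, 363.36, 83.72 and 150.71 FPKM with CpG-B, 170.7, 0.1 and 78.71 FPKM with CpG-C, and 268.32, 16.13 and 79.29 FPKM in control. The CpG-A libraries lay below all CpG-B libraries (-5.77, SE 1.6, limma adjusted p = 0.0777) and overlapped control (-4.55, SE 1.6, limma adjusted p = 0.225). Kif11, the motor that separates spindle poles, was low, with 0.01, 0.02 and 0.08 FPKM with CpG-A, 0.32, 0.12 and 1.12 FPKM with CpG-B, 0.04, 0.01 and 2.86 FPKM with CpG-C, and 3.75, 3.75 and 2.89 FPKM in control. Every library of the 3 classes lay below every control library. The log2 differences were -2.10 with CpG-A (SE 0.626, limma adjusted p = 0.129), -1.60 with CpG-B (0.173) and -1.48 with CpG-C (0.337), and none passed.

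Of the other 8 mitotic genes, Bub1 and Aurka did not overlap with control in some comparisons, and 6 overlapped with it in all 3. Bub1, a spindle checkpoint kinase, was listed at 0 in all CpG-A libraries and lay between 1.14 and 2.83 FPKM with CpG-B, between 0 and 0.01 FPKM with CpG-C and between 0.08 and 12.26 FPKM in control, so that the CpG-A and CpG-C libraries lay below all control libraries. Aurka, the spindle pole kinase, had 0, 4.38 and 10.53 FPKM with CpG-A, 2.52, 5.55 and 11.68 FPKM with CpG-B, 0.02, 0 and 0 FPKM with CpG-C, and 0.91, 0 and 2.18 FPKM in control. Its CpG-B libraries lay above all control and all CpG-C libraries. Birc5 (survivin) and Cenpa (the centromeric histone) were the most abundant of the rest, with up to 211.04 and 168 FPKM, and were below 1 FPKM only in CpG-A replicate 2, at 0.14 and 0.19 FPKM. Aurkb, Cdc20, Plk1 and Tpx2, which act at the centromere, the anaphase-promoting complex, the centrosome and the spindle, each lay below 1 FPKM in 5 or more libraries and reached at most 26.53 FPKM.

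The mitotic promoters were searched in the same way for the CHR element (TTTGAA or TTCGAA, of which the second reads alike on both strands) and for CCAAT boxes, which are known to occur together in genes of this class. A CHR spelling occurred in 7 of 13 mitotic promoters, in 3 of 13 S phase promoters and in 0 of 8 G1 promoters, against 14.4% of promoters of all genes in the table. CCAAT occurred in 12 of 13 mitotic promoters, in 9 of 13 S phase promoters and in 2 of 8 G1 promoters, against 36.6%. Ube2c is shown as the mitotic member with the largest CpG-A difference (chr2:164769679-164769928, plus strand), and Ccnb1 as the mitotic member whose CpG-B libraries lay above all others (chr13:100786487-100786736, minus strand, written along the gene). Capitals mark CHR and CCAAT letters on either strand, and Ccnb1 has CCAAT only. The Ube2c window runs up to its RefSeq start and ends inside the deposited gene, which starts at 164769863.
Ube2c: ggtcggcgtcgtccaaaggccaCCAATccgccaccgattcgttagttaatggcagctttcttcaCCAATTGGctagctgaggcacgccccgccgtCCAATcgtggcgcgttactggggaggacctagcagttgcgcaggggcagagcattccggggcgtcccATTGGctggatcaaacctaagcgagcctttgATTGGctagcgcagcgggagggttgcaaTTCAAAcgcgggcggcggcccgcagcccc
Ccnb1: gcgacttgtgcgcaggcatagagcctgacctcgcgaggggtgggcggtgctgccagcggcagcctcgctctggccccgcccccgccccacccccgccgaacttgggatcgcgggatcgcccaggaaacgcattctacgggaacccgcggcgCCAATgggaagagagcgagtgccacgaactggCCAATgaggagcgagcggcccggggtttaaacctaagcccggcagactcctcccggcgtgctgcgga

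**Figure D3:**
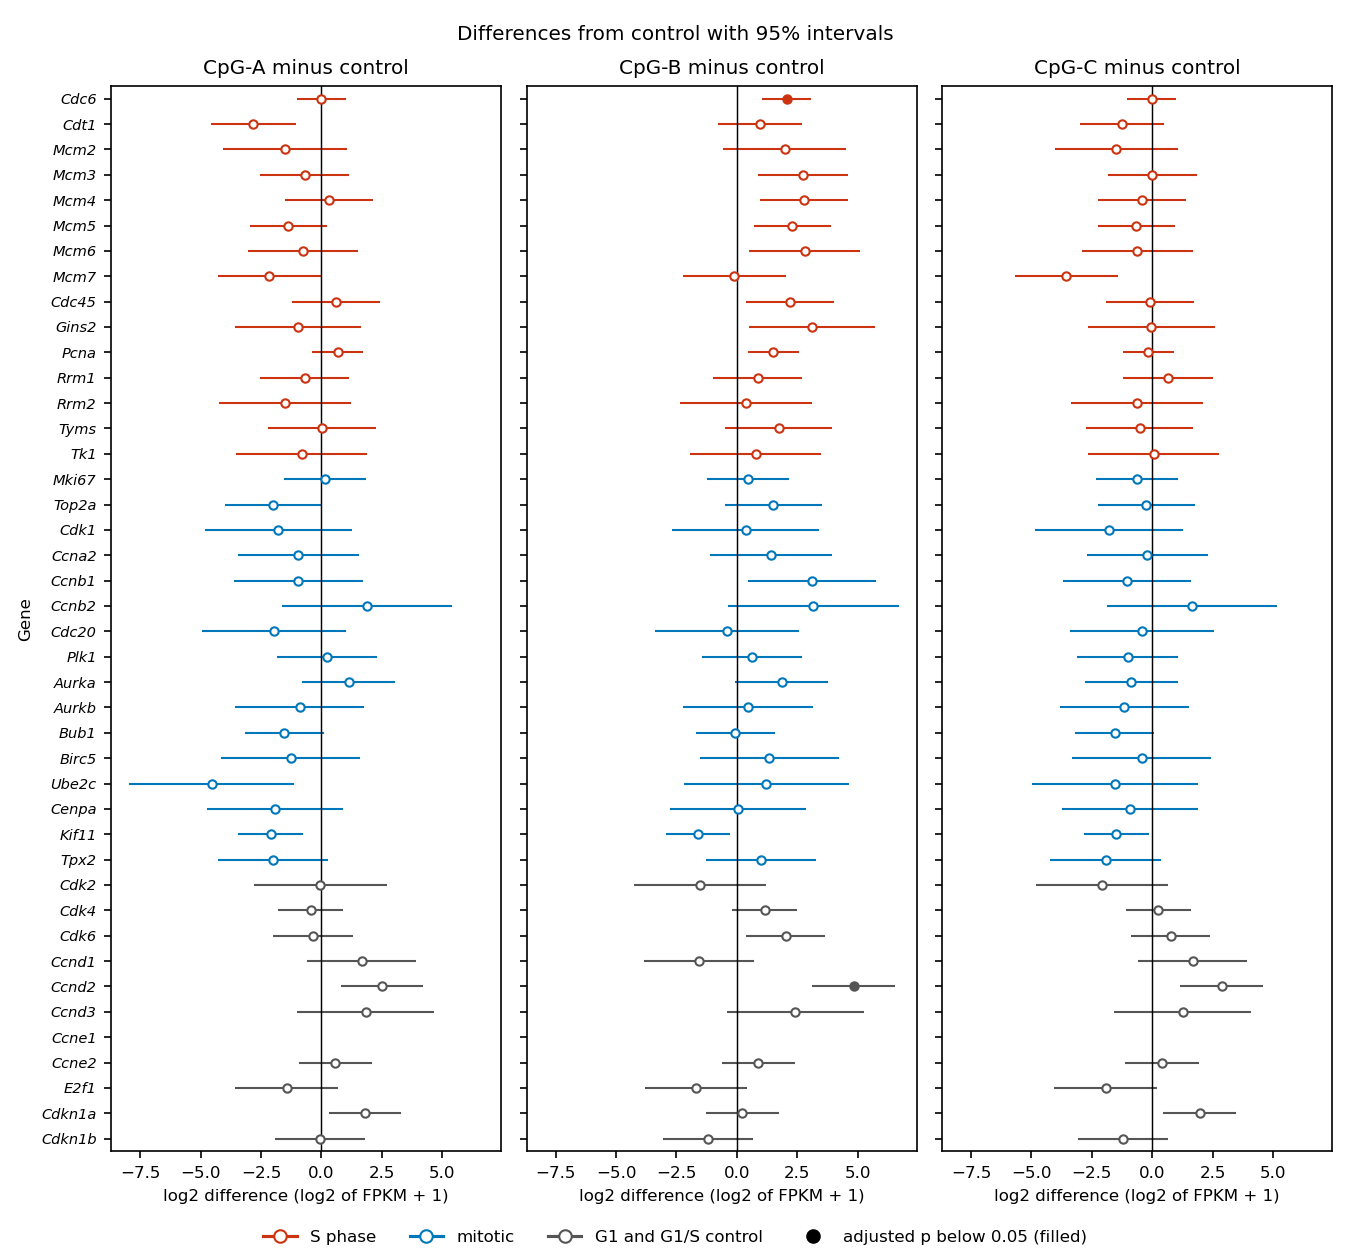
Log2 differences of 41 tested cell cycle genes from control, on the log2(FPKM + 1) scale with 95% intervals from the limma fit, for CpG-A, CpG-B and CpG-C (panels), coloured by class. Filled points are called at an adjusted p below 0.05, which holds for Ccnd2 (4.85) and Cdc6 (2.07) with CpG-B and for none with CpG-A or CpG-C, and the row of Ccne1 is empty because it was not tested.

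The balance of S phase against mitotic genes did not differ between the groups beyond the spread of the libraries. The median log2(FPKM + 1) of the S phase genes minus that of the mitotic genes was -0.06, 0.11 and -0.96 with CpG-A, 0.00, 0.86 and 0.85 with CpG-B, -0.15, 0.44 and -0.52 with CpG-C, and -3.76, 1.82 and -0.55 in control. The group means were -0.30 ± 0.57 with CpG-A, 0.57 ± 0.49 with CpG-B, -0.08 ± 0.48 with CpG-C and -0.83 ± 2.80 in control (SD, n = 3 each). Control held both extremes, at -3.76 in library 1 and 1.82 in library 2. In control library 1 the S phase genes were split, with 7 of 15 at 5 FPKM or more and the other 8 below 1 FPKM. Every CpG-B library had a median of at least 5.93 FPKM in both classes. Because the genes were picked with results known, no test was made of this balance.

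**Figure D4:**
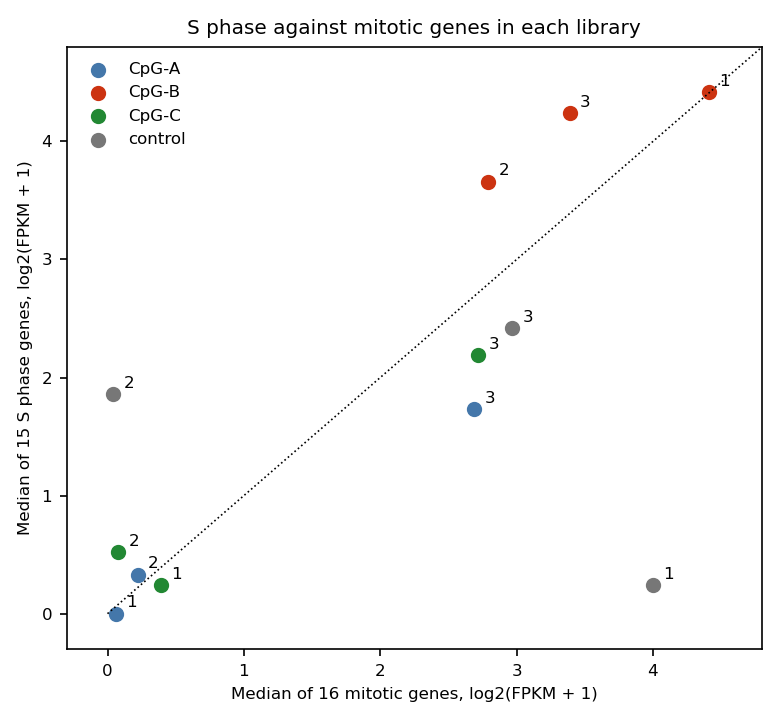
Median log2(FPKM + 1) of the 15 S phase genes (vertical axis) against that of the 16 mitotic genes (horizontal axis) in each of the 12 libraries, coloured by group and numbered by replicate, with a dotted line where both are equal. The 3 CpG-B libraries lie at S phase medians of 3.66 to 4.42, above all others, and control replicate 1 pairs a high mitotic median (15.04 FPKM) with an S phase median of 0.24 log2 units.

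Set against each other at the same dose and time, CpG-B cells had more S phase and mitotic transcripts than cells given either of the other classes. CpG-A had the lower mean in all 15 S phase genes (median log2 difference -2.08) and all 16 mitotic genes (-1.77) relative to CpG-B. The 11 G1 genes were split, with 5 higher and 6 lower with CpG-A (median -0.32). Over all 42 genes CpG-A was thus higher in 5, all of them G1 genes, and lower in 37, while 49.8% of tested genes were higher. The mitotic median was -1.05 without CpG-A replicate 2, with 14 of 16 lower. In 18 of the 42 genes every CpG-A library lay below every CpG-B library, beside 10.2% of tested genes, and in 2 genes (Ccnd1 and Cdkn1a) above it, beside 9.49%. Cdc6, Cdt1 and Mcm5 were called lower with CpG-A, 3 of 41, where 2.43% of tested genes were called, 1.44% lower and 0.988% higher. Relative to CpG-C, CpG-B had the higher mean log2(FPKM + 1) in all 15 S phase genes (median 2.27) and 15 of 16 mitotic genes (1.62). It was higher in 9 of 11 G1 genes (0.55) and in 39 of all 42 genes, while 47.8% of tested genes were higher. Of the 39, Cdc20 and Ccnd3 had a lower mean FPKM with CpG-B than with CpG-C. The mitotic median was 1.04 without CpG-B replicate 1, with 14 of 16 higher. In 19 of the 42 genes every CpG-B library lay above every CpG-C library, 12 of them S phase genes, beside 9.2% of tested genes. In 2 genes every CpG-B library lay below, beside 9.18%. Both the 18 and the 19 genes include Cdc6 and the untested Ccne1, which reached 1 FPKM only in CpG-B libraries. Only Cdc6 was called, where 1.35% of tested genes were called. In both comparisons the test of Cdc6 had to set CpG-B apart. When only the 2 classes compared were fitted, none of these calls passed, with limma adjusted p of 0.0737 for Mcm5, 0.1 for Cdt1 and 0.156 for Cdc6 in CpG-A against CpG-B and 0.187 for Cdc6 in CpG-B against CpG-C.

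No member passed the test between CpG-A and CpG-C. CpG-A had the higher mean in 18 of the 42 genes and the lower in 24, and 47.9% of tested genes were higher. The median log2 difference of CpG-A minus CpG-C was -0.02 over the 42 genes, -0.15 for S phase and -0.03 for mitotic genes. Over the 42 genes it ran from -0.63 (without CpG-A replicate 3) to 0.10 (without CpG-A replicate 2) without single libraries, so its sign was not fixed. limma called 0 of the 41 and 0 of all 11641 genes tested (0%), with 1 member and 467 genes (4.01%) at an unadjusted p below 0.05. The interval of a single gene is wide, such as -0.22 to 1.89 for Pcna and -3.32 to 0.17 for Cdt1. In 1 gene (Pcna) every CpG-A library lay above and in 3 genes below every CpG-C library, beside 2.99% and 4.1% of tested genes.

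Genes of the same processes outside the 42 were counted as well. Of 59 other DNA replication genes, 51 were tested, and 4 rose and 1 fell with CpG-B against control, beside 3.26% and 2.48% of all tested genes. Among those that rose, Uhrf1, which keeps DNA methylation through replication, had 11.26, 8.75 and 14.46 FPKM with CpG-B against 0.05, 0 and 0.8 FPKM in control (log2 difference 3.31, SE 0.644, limma adjusted p = 0.00589). Gins1 rose by 3.99 log2 units (limma adjusted p = 0.0396). Lig1, the replicative DNA ligase, had 6.18, 3.85 and 4.04 FPKM with CpG-B and was listed at 0 in control (limma adjusted p = 0.0173). Uhrf1 and Lig1 reached 1 FPKM in only 1 library outside CpG-B, so they too were tested through the CpG-B libraries, and the same limit holds. Pold1, the catalytic subunit of polymerase delta, fell to 7.33, 1.36 and 10.25 FPKM with CpG-B, against 53.64, 43.18 and 43.7 FPKM in control (-2.98, SE 0.709, limma adjusted p = 0.0216). None of these genes was called with CpG-A or CpG-C against control. CpG-A was lower than CpG-B in 5 of them, beside 1.44% of all tested genes, among them Tipin (-4.32, limma adjusted p = 0.031) and Dtl (-2.85, limma adjusted p = 0.0332).

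Of 74 other mitotic genes, 62 were tested, and 1 rose with CpG-B and 1 fell with CpG-A against control. Among all tested genes 3.26% rose with CpG-B and 1.47% were called with CpG-A, so these counts do not set the mitotic genes apart. Cenpm, a centromere protein, had 51.08, 9.48 and 14.15 FPKM with CpG-B against 0, 0 and 0.03 FPKM in control (4.32, SE 0.81, limma adjusted p = 0.00459), and it too was tested through the CpG-B libraries, with 1 other library at 1 FPKM or more. Stmn1, the microtubule-destabilising protein stathmin, fell to 2.31, 0.56 and 6.83 FPKM with CpG-A, against 271.17, 37.34 and 39.61 FPKM in control (-4.45, SE 0.855, limma adjusted p = 0.0124). It was also lower with CpG-A than with CpG-B (-5.17, limma adjusted p = 0.00543), as were Spc25 (-5.12, limma adjusted p = 0.0367), Cenpm (-4.32, limma adjusted p = 0.0109), Cks2 (-3.45, limma adjusted p = 0.0138) and Cks1b (-2.54, limma adjusted p = 0.0306). Of the 62 tested, 5 were thus called lower with CpG-A than with CpG-B, beside 1.44% of all tested genes. The limit on Cenpm holds for that comparison too.

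Of 51 other G1 and checkpoint genes, 42 were tested, and with CpG-B 5 rose against control, beside 3.26% of all tested genes. They were Myc, the growth-promoting transcription factor, with 17.4, 24.75 and 49.35 FPKM and listed at 0 in control (limma adjusted p = 0.017), its antagonist Mxd1 (33.52 against 4 FPKM on average, limma adjusted p = 0.0199), the Cdk4 and Cdk6 inhibitor Cdkn2b (3.43, limma adjusted p = 0.00315), the checkpoint kinase Chek1, listed at 0 in control (limma adjusted p = 0.0138), and the stress gene Gadd45b (2.81, limma adjusted p = 0.00306). Cdkn2b had 24.96, 7.13 and 5.34 FPKM with CpG-B and at most 0.03 FPKM in any other library, so like Cdc6 it was tested through the CpG-B libraries alone and had to differ. Chek1 reached 1 FPKM in only 1 library outside CpG-B. Gadd45b rose with all 3 classes, by 2.15 with CpG-A (limma adjusted p = 0.0423) and 2.21 with CpG-C (limma adjusted p = 0.032). Cdkn2c, another inhibitor of Cdk4 and Cdk6, fell to 0.22, 2.3 and 8.71 FPKM with CpG-A, against 90.23, 89.84 and 26.89 FPKM in control (-4.18, limma adjusted p = 0.0472). Of 29 p53 targets 23 were tested and 1, the death receptor Fas, rose with CpG-B (5.38, limma adjusted p = 0.0239), a share near that of all genes.

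Markers of other cell types moved with CpG-B as well, where 3.26% of all tested genes rose and 2.48% fell. The 12 plasmacytoid markers summed to 14528 to 20319 FPKM with CpG-A, 4868 to 15937 with CpG-B, 15295 to 18641 with CpG-C and 7869 to 15510 in control. Ly6d made up most of the CpG-B sum, at 3263.37, 14679.41 and 12217.6 FPKM, against 7213.04, 1445.17 and 4803.62 in control. The other 11 markers had a lower mean with CpG-B than in control, and the median log2 difference of the 12 was -2.29. In 8 of the 12 every CpG-B library lay below control, beside 15.6% of tested genes, and 6 of them fell by the test. Siglech, a defining receptor of mouse pDCs, had 1210.86, 2522.25 and 2318.78 FPKM with CpG-A, 103.82, 253 and 230.11 with CpG-B, 1040.75, 2402.46 and 1922.4 with CpG-C, and 2144.04, 3240.76 and 2776.74 in control. The 9 natural killer cell markers summed to 427.5 to 603.8 FPKM with CpG-A, 1053 to 5312 with CpG-B, 359.6 to 548.7 with CpG-C and 55.59 to 779.2 in control. Of these, 3 rose with CpG-B (Prf1, Klrk1 and Ncr1), while Klrb1c had 0.02, 0.11 and 3.64 FPKM and Tbx21 0, 0 and 1.42 FPKM there. Ncr1 rose with CpG-A (5.05, limma adjusted p = 0.00109) and CpG-C (3.61, limma adjusted p = 0.0142) too. Gzma and Nkg7 made up most of the CpG-B sum and were not called. Gzma had 626.66, 4001.75 and 318.47 FPKM with CpG-B, against 266.32, 3.95 and 152.73 in control. Nkg7 had 1145.64, 894.71 and 442.65 FPKM with CpG-B, against 415.82, 0.79 and 94.7 in control. Of the 10 conventional dendritic cell markers, 8 were tested, and with CpG-B 2 rose (Batf3 and Itgam) and 3 fell (Cd209a, Cadm1 and Sirpa). Their sum was 137.8 to 399.8 FPKM with CpG-A, 100.1 to 247.7 with CpG-B, 73.28 to 359.2 with CpG-C and 495.5 to 734.5 in control. Batf3 had 167.37, 41.91 and 16.69 FPKM with CpG-B against at most 0.28 FPKM in control (5.54, limma adjusted p = 0.0166). Itgam had 5.2, 8.36 and 1.52 FPKM with CpG-B and at most 0.65 FPKM in any other library. Like Cdc6, it was tested through the CpG-B libraries alone and had to differ. Cd209a had at most 0.66 FPKM with CpG-B against 181.91, 468.45 and 315.75 FPKM in control (-7.88, limma adjusted p = 0.000176). It also fell with CpG-A (-7.35, limma adjusted p = 0.000554) and with CpG-C (-6.88, limma adjusted p = 0.000953). Of the 9 progenitor markers, 6 were tested and limma called 0 with CpG-B, with 1 at an unadjusted p below 0.05. Cd48 made up most of their sum, with 603.89, 842.32 and 629.26 FPKM with CpG-B against 528.9, 574.59 and 337.79 FPKM in control, while Flt3 had 0.5, 18.7 and 21.56 FPKM with CpG-B against 39.03, 111.47 and 269.89 FPKM in control, and Cd34 stayed at or below 0.92 FPKM in every library. The progenitor markers summed to 167.7 to 398.8 FPKM with CpG-A, 610.5 to 865.9 with CpG-B, 363.1 to 583.5 with CpG-C and 587.5 to 707.6 in control. The T cell markers summed to 168 to 226.8 FPKM with CpG-A, 268 to 406 with CpG-B, 266.1 to 297.3 with CpG-C and 104.2 to 146.1 in control. Of the 7 found, 5 had a higher mean log2(FPKM + 1) with CpG-B than in control and 2 a lower one. Cd8a rose (2.38, limma adjusted p = 0.0148). Cd4 went the other way without being called, with 0.89, 6.26 and 18.71 FPKM with CpG-B, all below the 36.26, 35.63 and 69.94 FPKM in control. Lck, counted as higher, had 9.81, 3.34 and 11 FPKM with CpG-B against 26.79, 0.04 and 12.85 in control. Cd3e reached at most 0.34 FPKM in any library. Cd3d, however, had 7.66, 0.03 and 27.03 FPKM with CpG-B, against 0.07, 8.78 and 14.77 in control. Cd3g had 1.01, 0 and 40.87 FPKM with CpG-B, against 0, 0 and 8.08 in control. The erythroid markers summed to 45.15 to 227.4 FPKM with CpG-A, 71.93 to 659.4 with CpG-B, 28.51 to 356.5 with CpG-C and 0.4 to 42.17 in control. Of the 9 found, 3 had a higher mean with CpG-B than in control and 2 a lower one, and Car2 rose (5.95, limma adjusted p = 0.00284). Klf1 was listed at 0 in all CpG-B libraries, while Car1 had 2.03, 41.38 and 18.31 FPKM there. Of the B cell list 1 gene, Dntt, fell with CpG-B (-5.16, limma adjusted p = 0.00107). No neutrophil or monocyte marker was called with CpG-B against control, with 0 and 2 at an unadjusted p below 0.05. Only 1 of 7 neutrophil and 4 of 9 monocyte markers found were tested, so this says little. Ly6c2 of the monocyte list differed between classes (CpG-A minus CpG-B 2.02, limma adjusted p = 0.03, and CpG-B minus CpG-C -1.99, limma adjusted p = 0.0467). The part of other cells in the cell cycle levels was not tested.

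The authors' deposited table gives a q-value for each pair of groups, and its calls were far more numerous. In the authors' deposited table a q below 0.001 was held by 39 of 42 members for CpG-B against control, beside 83.2% of all genes with a q-value. For CpG-A and CpG-C against control the authors' deposited table gave 37 of 41 and 38 of 40, beside 81.1% and 81.6%.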

How the data were processed

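RNA-seq libraries of 12 pDC samples, 3 per group, were compared from 1 gene table. Its expression values were deposited as FPKM, a column for each library. Tools in the submitters' processing notes, listed there with no order or role, are RSEM 1.2.8, StringTie, GATK, Bowtie2 2.2.5 and HISAT, and the build is mm10. Per the file headers the deposited table also holds log2 ratios and q-values for each pair of groups, whose test is not given in the sources used here. The log2 ratios were not used. Of 21574 lines 1 was broken and left out.

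Tests used log2(FPKM + 1). The 11641 genes that reached 1 FPKM in 3 or more libraries were fitted together over all 12 libraries, with 1 mean per group and no covariate, in limma 3.58.1 (R 4.3.3) with a trend of variance on mean level. Residual degrees of freedom were 8 and prior ones 6.81, the median SE was 0.841 log2 units, and the procedure was tested on simulated data. Where every library of a group is listed at 0, no log2 difference from it is given. With 3 against 3 an exact permutation test cannot pass 0.05, so none was used. Members are matched by symbol, and all 42 also matched RefSeq by gene number and symbol.

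The members and gene lists were chosen with earlier results of these data known. Values in every library are given for each called member, for the 4 largest differences per class against control and for Mki67, Top2a, Cdk1, Ccnb1, Mcm2, Pcna, Rrm2, Ccnd1, Ccnd2, Ccnd3, Cdk4, Cdk6, Cdkn1a, Cdkn1b and E2f1, and other members given in full were chosen after their values were seen. Of the other lists, up to 4 called genes per comparison are named by size of difference, and Lig1, Gadd45b with CpG-B and Cks1b are named beyond that, while a few genes of these lists are not reported here. Alternatives covered the added constant, the minimum level, the scaling, library weights, the libraries in the fit and the replicate number. The same-numbered libraries of CpG-A and control correlated at 0.106, 0.133 and 0.117 in their deviations from the group means, which by the rule used here pairs them, and the titles are the only source of the numbers. FPKM values hold no counts, so there are no counting intervals.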

Additional observations from a re-analysis of the deposited data

How the results depend on the processing

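The number of members called with CpG-A against control and with CpG-A against CpG-C stayed at 0 under all 22 alternatives each. With CpG-B against control, 2 were called: 1 with a minimum of 5 FPKM, without the libraries numbered 1 or in a fit of the 2 groups alone, 5 and 4 under the median-of-ratios and upper quartile scalings, and 1 to 3 when single libraries were left out. With CpG-C against control, 0 were called: 2 with library weights (Ccnd2 and Cdkn1a), 1 without the libraries numbered 1 (Mcm2), and 0 to 1 without single libraries. For CpG-A against CpG-B, with 3 called, the counts were 1 without the libraries numbered 1, 0 in a fit of the 2 groups alone and 0 to 4 without single libraries. For CpG-B against CpG-C, with 1 called, they were 0 with a minimum of 5 FPKM or in a fit of the 2 groups alone, 2 under each scaling, 9 with library weights and 0 to 0 without single libraries. The cause of these shifts was not tested, apart from Cdc6, which no longer reached the minimum for testing with a minimum of 5 FPKM, without the libraries numbered 1 or without any 1 CpG-B library.

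With the replicate number as a block, 3 members were called with CpG-B against control (Pcna, Ccnd2 and Cdc6), 6 for CpG-A against CpG-B (Ccnd1, Mcm3 and Ube2c beside Cdc6, Cdt1 and Mcm5) and 4 for CpG-B against CpG-C (Ccnd1, Mcm5 and Pcna beside Cdc6), while CpG-A against control kept a count of 0. Over the 18 pairs of same-numbered libraries of different groups, deviations correlated at 0.061 to 0.170, and each library correlated best with its own number, a hint from the data and not from the design.

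The S phase minus mitotic difference from control was 0.53, 1.41 and 0.76 with CpG-A, CpG-B and CpG-C and moved over -0.93 to 1.86, -0.06 to 2.73 and -0.71 to 2.08 without single libraries, within the replicate spread. The CpG-A minus CpG-C difference of Ccnd2, -0.36, lay between -0.87 (without CpG-C replicate 2) and 0.15 (without CpG-A replicate 2) when single libraries were left out. The scalings shifted the median of all tested genes against control by 0.16 and 0.27 with CpG-A, 0.26 and 0.29 with CpG-B and 0.15 and 0.20 with CpG-C (median-of-ratios and upper quartile). The direction of the S phase and mitotic medians against control was the same under both. The class counts under other scalings and without libraries were chosen after seeing the data. Levels under about 1 FPKM rest on few fragments, and the depth is only an estimate.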
